A study of Arabidopsis thaliana with 6 samples.

Results

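The nuclear genes for the small subunit of Rubisco (RBCS1A, RBCS1B, RBCS2B and RBCS3B) and for Rubisco activase (RCA) were described in wild type and prmt5 mutant seedlings of Arabidopsis thaliana. They were chosen by locus (AT1G67090, AT5G38430, AT5G38420, AT5G38410 and AT2G39730) and make up 5 of the 33602 genes in the deposited gene table. Their level, the reads left in their introns and the choice between the alternative donors of the last RCA intron were compared between genotypes.

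The study sequenced polyadenylated RNA of whole plants, 3 libraries of the wild type accession Col-0 (WT) and 3 of a prmt5 mutant, whose allele is not named in the sources used here. Seeds of both genotypes were kept in the cold and dark for 4 days at 4 °C on agarose medium, and the plants were harvested at 9 days after growth in unbroken white light at 22 °C. PRMT5 is an arginine methyltransferase whose known substrates include Sm proteins of the spliceosome, so the comparison asks what its loss does to transcript levels and splicing. Seedlings moved to 10 °C, which the series also covers, were not analysed here.

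Total gene counts were 69699931, 38564256 and 75461631 for WT, against 51446743, 41465842 and 67300273 for prmt5. The 5 genes took 4.15% to 4.80% of all gene counts in a library. PRMT5 itself (AT4G31120) was not lower in the mutant, at 29.97 ± 1.21 in WT and 32.2 ± 2.98 in prmt5 on the CPM scale (counts scaled to library size) (SD, n = 3 each; log2 change 0.11, edgeR adjusted p 0.30). Its splicing separated the labels, because 1 annotated junction of the gene, singled out after its values were seen, was read 83 to 116 times per WT library and 3 to 17 times per prmt5 library. Reads covered gene starts less evenly in WT replicate 2 and prmt5 replicate 1. Their median ratio of coverage per base in the first over the last exon bins, over 5966 genes, was 0.697 and 0.781, against 0.870 to 0.933 in the other libraries. Results that change without both of these libraries are given with that value. Nothing in the labels says that the replicates came from separate cultures, so p-values measure the spread between these libraries, which may be technical.

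Rubisco fixes carbon dioxide in the Calvin-Benson cycle. Its large subunit is encoded in the plastid, while the small subunits are made from a nuclear RBCS family and imported into the chloroplast. Rubisco activase is an AAA+ ATPase that removes inhibitory sugar phosphates from Rubisco's active sites. In Arabidopsis a single RCA gene gives a longer alpha form and a shorter beta form by alternative splicing of the last intron. The alpha form carries a C-terminal extension with a cysteine pair through which light, by way of thioredoxin f, sets its activity, and the beta form lacks it.

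The sequences that separate the RCA forms are shown first, because the isoform results rest on them. They were read on the minus strand of chromosome 2 from the TAIR10.1 reference, whose splice sites match the coordinates of the deposited tables. In the genomic window at chr2:16571171-16571199, the capitals mark the 11 bases that lie between the upstream donor, used for alpha, and the downstream donor, used for beta. In the beta transcript and in the transcript that keeps the intron, capitals mark the stop codon. The alpha and beta lines give 9 bases before the junction and 21 after it, and the last line gives the 30 genomic bases that end at the stop inside the intron (chr2:16571174-16571203).
both donors: ctttctacgGTAAAACAGAGgtttgaaac
alpha spliced: ctttctacggaaaaggagcccagcaagtaa
beta spliced: aaaacagaggaaaaggagcccagcaagTAA
intron retained: ggaactttctacggtaaaacagaggttTGA

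The 11 extra bases shift the reading frame, so the same last exon is read to a stop in beta and past it in alpha. The annotated RefSeq transcripts encode 474 residues for alpha, 446 for beta and 441 where the intron is kept. The alpha donor, with its GT in capitals in acgGTaaaa, scored 6.40 on a log-odds scale built from the last 3 exon bases and the first 6 intron bases of 50683 tested introns. The beta donor, gagGTttga, scored 7.26. Of all scored donors, 38.8% scored lower than the alpha donor and 55.6% lower than the beta donor, so neither is at an extreme.

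RBCS3B, which encodes a small subunit from the chromosome 5 gene array, was the only member whose level passed the test, and it was lower in the mutant. The other small subunit genes and RCA did not pass. Of the 5 genes, 1 was called at an adjusted p under 0.05, against 33.3% of all 22509 genes tested, among which 17.9% were higher and 15.4% lower in prmt5. The share of members called is therefore not above that of the genome.

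RBCS3B had 11246, 11803 and 12719 CPM in the WT libraries and 9199, 9780 and 8663 in the prmt5 libraries. Every prmt5 library lay below every WT library. The means were 11922 ± 744 and 9214 ± 559 CPM (SD, n = 3 each), a fitted ratio of 0.773 and a log2 change of -0.37 with SE 0.11 (edgeR adjusted p 0.027). The call was lost without WT replicate 3 (adjusted p 0.092), without prmt5 replicate 1 (0.094) and without prmt5 replicate 3 (0.11). It was also lost with WT replicate 2 and prmt5 replicate 1 both left out (0.060). The log2 change stayed between -0.42 and -0.33 over all alternatives.

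RBCS1A, the member with the highest level per length, had 14436, 14993 and 15231 CPM in WT and 14430, 14933 and 13104 in prmt5. Its groups overlapped, with a log2 change of -0.07 (SE 0.11, adjusted p 0.66). RBCS1B had 5430, 6123 and 6212 CPM in WT and 5371, 5278 and 4951 in prmt5. The prmt5 libraries lay just below the lowest WT library, and the log2 change of -0.19 (SE 0.11) did not pass (adjusted p 0.20). RBCS2B had 4194, 5144 and 5157 CPM in WT and 4269, 4563 and 4256 in prmt5. These groups overlapped, with a log2 change of -0.15 (SE 0.11, adjusted p 0.34).

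RCA had 9891, 8946 and 10664 CPM in WT and 9199, 10871 and 9478 in prmt5, so the groups fully intermingled. Its means of 9834 ± 860 and 9849 ± 896 CPM (SD, n = 3 each) gave a log2 change of 0.00 (SE 0.12, adjusted p 0.99). In bulk RNA, fewer cells of a type and less RNA per cell cannot be told apart.

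Per kilobase of exon, the order of the WT levels was RBCS1A, RBCS3B, RBCS1B, RBCS2B and RCA. RBCS1A stood at 14523 ± 398 CPM per kilobase and ranked 1 among all genes, RBCS3B at 11934 ranked 3, RBCS1B at 7329 ranked 4, RBCS2B at 5612 ranked 5 and RCA at 5025 ranked 7. The WT libraries of RBCS2B and RCA overlapped in level, with SDs of 641 and 440 CPM per kilobase.

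**Figure D1:**
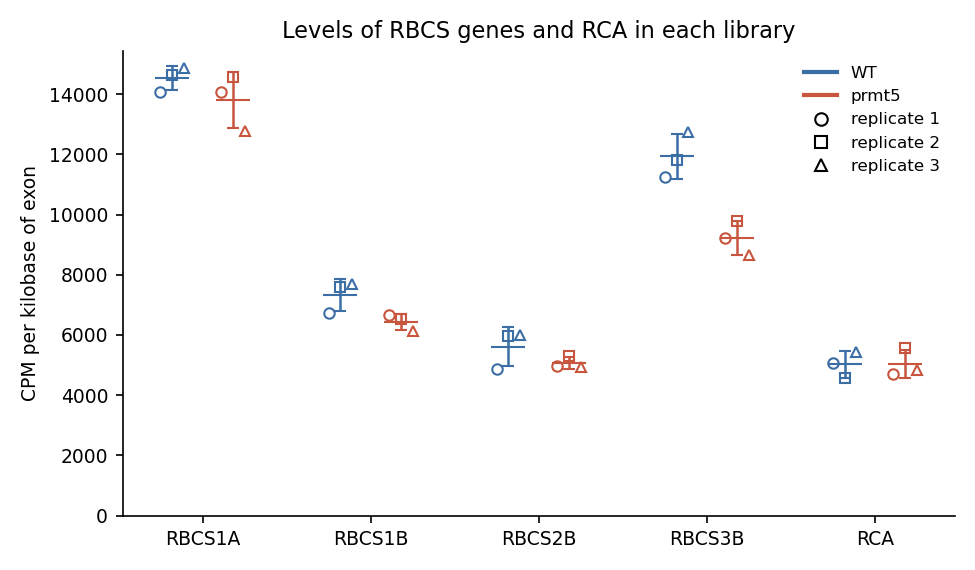
Level of each gene in CPM per kilobase of exon (vertical axis, from 0) in the WT (blue) and prmt5 (red) libraries; symbols are replicates, horizontal marks are means and bars are the SD of 3 libraries. RBCS3B is the only gene whose difference passed the test, and its prmt5 libraries all sit below its WT libraries.

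Because the RBCS genes are near copies, reads may be assigned to the wrong member. RBCS1B, RBCS2B and RBCS3B, which lie in an array on chromosome 5, share 96.7% to 97.2% of their coding bases and differ pairwise at 4 or 6 of 181 residues, while RBCS1A on chromosome 1 is 89.9% to 90.1% identical to each. Of the 50-base stretches of their exons, 31.9% in RBCS1B, 18.6% in RBCS2B and 23.0% in RBCS3B occurred elsewhere in the genome, against 0 in RBCS1A and 0 in RCA. Values of the array genes taken singly are therefore uncertain. In exon bins where under 20% of such stretches recur, the prmt5-to-WT log2 ratio of the RBCS3B share of RBCS counts per base was -0.21, as against -0.18 over all counts. That of RBCS1B was 0.14 in such bins, as against 0.00 over all counts, and its level changed by -0.06 on the log2 scale there, as against -0.19 (adjusted p 0.65 and 0.20).

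The sum of the RBCS genes does not depend on how reads are split within the family. It was 35307, 38062 and 39318 CPM in WT and 33269, 34554 and 30974 in prmt5. Every prmt5 library lay below the WT libraries, but the difference did not pass the test (log2 change -0.19, SE 0.13, edgeR adjusted p 0.29).

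Within the family, the share of RBCS3B was lower and that of RBCS1A higher in every prmt5 library. RBCS3B held 31.9%, 31.0% and 32.3% of RBCS counts in WT and 27.6%, 28.3% and 28.0% in prmt5. RBCS1A held 40.9%, 39.4% and 38.7% in WT and 43.4%, 43.2% and 42.3% in prmt5. For both genes the groups did not overlap, and the two-sided exact permutation p was 0.1, the smallest that 3 against 3 libraries allow. The mean share of RBCS3B went from 31.7% ± 0.68 to 28.0% ± 0.33 and that of RBCS1A from 39.7% ± 1.103 to 43.0% ± 0.58 (SD, n = 3 each). The shares of RBCS1B (15.8% in both genotypes, exact permutation p 0.9) and RBCS2B (12.8% and 13.3%, exact permutation p 0.6) overlapped in all counts. In the exon bins with under 20% of recurring stretches, the RBCS1B share per base did not overlap, at 14.4%, 14.6% and 14.6% in WT and 15.8%, 15.6% and 16.7% in prmt5 (exact permutation p 0.1), so its share is uncertain.

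**Figure D2:**
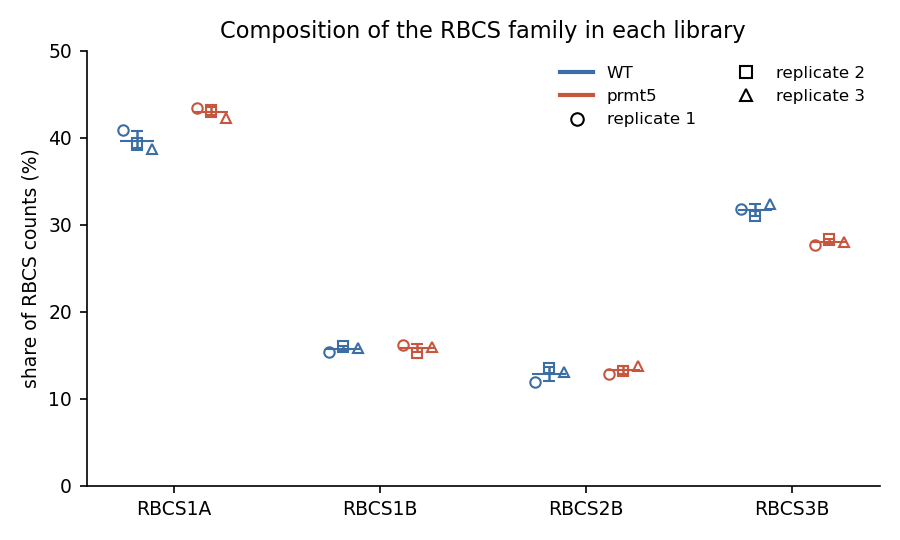
Share of each small subunit gene in the counts of all RBCS genes (vertical axis, percent, from 0) in the WT (blue) and prmt5 (red) libraries; symbols are replicates, horizontal marks are means and bars are the SD of 3 libraries. The RBCS3B share is lower and the RBCS1A share higher in every prmt5 library, while the RBCS1B and RBCS2B shares overlap in these counts (not so for RBCS1B in exon bins with few recurring stretches).

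Joins between genes of the chromosome 5 array were rare in both genotypes. Reads joined 2 different array genes at 288 distinct positions, and these joins took 0.134% ± 0.016 of the junction counts of the array in WT and 0.127% ± 0.006 in prmt5 (SD, n = 3 each). Of them, 6 connected annotated splice sites of both genes, with 57 to 143 counts in a WT library and 61 to 97 in a prmt5 library.

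Intron reads were called higher relative to the gene count in RCA and in every RBCS gene except RBCS2B, mostly by small amounts. Of the 15 introns tested in the 5 genes, 7 were raised and 0 lowered in prmt5 with edgeR, as with DESeq2, against 21.6% raised and 0.518% lowered among all 53291 introns tested. With all 6 libraries the 15 fitted changes were above 0, so 0 were lowered at an unadjusted p under 0.05, and their median of 0.25 on the log2 scale lay below the median of 0.37 over all introns. No member reached the upper quartile of 0.92. With WT replicate 2 and prmt5 replicate 1 both left out, 7 member introns were raised as well. When introns averaging under 20 counts were dropped, 8 member introns were raised, against 6363 of all 18246 introns kept. The added call was RBCS2B intron 2 (edgeR adjusted p 0.032). Among introns with more reads, the share raised was thus above the 21.6% over all introns.

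In RBCS1A, reads of intron 2 were 0.258% ± 0.016 of the gene count in WT and 0.312% ± 0.007 in prmt5, which is 0.28 on the log2 scale (SE 0.09, edgeR adjusted p 0.015), and intron 1 did not pass (log2 change 0.03, adjusted p 0.89). In RBCS1B both introns of the coding region rose, intron 1 by a log2 change of 0.39 (adjusted p 0.0013) and intron 2 by 0.44 (adjusted p 2.5e-04). An annotated 5′ UTR intron of that gene, whose donor is GC, did not pass (0.27, adjusted p 0.27). In RBCS2B neither intron passed, with log2 changes of 0.16 (adjusted p 0.27) and 0.25 (adjusted p 0.056). In RBCS3B intron 1 rose by 0.25 (adjusted p 0.022) and intron 2 by 0.43 (adjusted p 1.8e-04). The call of RBCS1A intron 2 was lost without WT replicate 1 (adjusted p 0.074), WT replicate 3 (0.086), prmt5 replicate 1 (0.063) or prmt5 replicate 2 (0.053), and that of RBCS3B intron 1 without WT replicate 1 (0.082), prmt5 replicate 2 (0.12) or prmt5 replicate 3 (0.051). RBCS2B intron 2 passed without WT replicate 2 (adjusted p 0.035).

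Intron 2 of RBCS1B, RBCS2B and RBCS3B begins at the same donor, gagGTaata, with its GT in capitals, and that of RBCS1A at gagGTaatt. The shared donor scored 7.88, above 66.2% of all donors, and the RBCS1A donor 8.95. Among the introns with the shared donor, those of RBCS1B and RBCS3B passed the test. That of RBCS2B narrowly did not (log2 change 0.25, edgeR adjusted p 0.056). Whether these introns differed from each other was not tested. Of stretches as long as those used for exons, 29.2% in RBCS3B intron 2 and 25.4% in RBCS1B intron 2 occurred elsewhere in the genome. RBCS2B intron 2 had 0. In intron 1 the shares were 25% in RBCS1B, 24.4% in RBCS2B and 0 in RBCS3B. Where stretches recur, intron reads may also be assigned to the wrong array gene. With library size in place of the gene count as the offset, no RBCS intron was called and RBCS3B intron 1 turned to -0.12 (adjusted p 0.53), so these calls describe intron reads relative to each gene's own level.

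A 15-base bin of RBCS3B at the start of intron 2, between the used donor and an annotated alternative donor (chromosome 5, 15377896 to 15377910), was the only exon bin of the 5 genes that passed. Of 25 member bins tested, 1 was called, against 0.121% of all 129447 bins. Its counts were 177, 118 and 180 in WT, against 278, 225 and 319 in prmt5, without overlap. Bin counts of a gene add up to more than its gene count, so a read counts in each bin it touches, and short bins also hold reads of their neighbours. Its share of the gene count went from 0.023% to 0.055%, which is 1.28 on the log2 scale (SE 0.11, edgeR adjusted p 0.0019). In counts per base, it stood at 0.666 ± 0.054 times the rest of intron 2 in WT and at 1.19 ± 0.045 times in prmt5 (SD, n = 3 each; exact permutation p 0.1). The junction table held 0 junctions with a donor inside this bin, so the bin's reads were not accompanied by splicing from the alternative donor. An alternative acceptor of the same intron took 5.24% ± 0.05 of its junction counts in WT and 5.03% ± 0.14 in prmt5. These shares did not overlap (exact permutation p 0.1). The junction was not called, in a test that grouped it with a junction of RBCS2B.

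The last intron of RCA was spliced differently in the mutant, in a gene whose level did not pass the test. Fewer reads used the beta donor and more lay in the intron, while use of the alpha donor did not pass with genotype as the only term. Of 18 junctions tested in or between the 5 genes, 1 was called, the RCA beta junction, against 5.90% of 8106 junctions tested. Apart from the RCA junctions, all were tested in groups that held joins between different genes of the chromosome 5 array. Those tests do not compare splice choices of a single gene, so the 2 shares are not alike.

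Counts of the beta junction were 20539, 14553 and 25978 in WT, against 12189, 9386 and 13344 in prmt5. Those of the alpha junction were 24562, 17231 and 29777 in WT, against 24652, 20062 and 28018 in prmt5. Beta thus took 45.5%, 45.8% and 46.6% of both junctions in WT and 33.1%, 31.9% and 32.3% in prmt5. The groups were far apart and each was tight.

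The mean beta share fell by 13.6 percentage points, from 46.0% ± 0.55 to 32.4% ± 0.62 (SD, n = 3 each; two-sided exact permutation p 0.1, the smallest possible). Beta reads per alpha read went from 0.851 ± 0.019 to 0.480 ± 0.014. In the test within junction clusters, the beta junction fell by 0.50 on the log2 scale relative to the cluster (SE 0.13, edgeR adjusted p 0.011), and the alpha junction was at 0.32 (SE 0.13, adjusted p 0.18). With the order of the library numbers as a block, an alternative chosen after seeing the data, the alpha junction passed at 0.32 (adjusted p 0.010). The call of the beta junction was lost without WT replicate 3 (adjusted p 0.076), without prmt5 replicate 2 (0.079) and without prmt5 replicate 3 (0.054). Over all alternatives, the beta junction had log2 changes of -0.69 to -0.49 and adjusted p of 3.7e-05 to 0.079.

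Set against the RCA gene count in place of the cluster, the beta junction fell by 0.69 on the log2 scale (SE 0.10, adjusted p 1.3e-04) and the alpha junction was at 0.13 (adjusted p 0.46). On the CPM scale, beta stood at 346 ± 32.5 in WT and 215 ± 19.0 in prmt5 without overlap, and alpha at 407 ± 34.8 and 449 ± 38.7 with overlap (SD, n = 3 each; exact permutation p 0.1 and 0.3). The 11 bases between the donors, which only alpha removes, could be read in the exon bins too. They are kept in beta and also where the intron is retained, so this is not an isoform share. Their counts per base over those of the next bin upstream were 3.27 ± 0.18 in WT and 2.49 ± 0.11 in prmt5, a log2 ratio of -0.39. A read counts in each bin it touches, which raises the counts per base of so short a bin. The bin itself had a log2 change of -0.47 and did not pass over all bins (edgeR adjusted p 0.29). It did with WT replicate 2 and prmt5 replicate 1 both left out (-0.41, adjusted p 2.1e-04).

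Reads inside the last RCA intron, counted over the 113 bases after the beta donor, were 5108, 3838 and 7259 in WT and 8762, 7246 and 9478 in prmt5. As a percent of the counts of both junctions, they came to 11.3, 12.1 and 13.0 in WT and 23.8, 24.6 and 22.9 in prmt5. No prmt5 library came near the WT libraries. The mean went from 12.1% ± 0.85 to 23.8% ± 0.85 (SD, n = 3 each; exact permutation p 0.1). Relative to the gene count, the log2 change was 0.78 (SE 0.09, edgeR adjusted p 7.1e-09), and it lay between 0.66 and 0.97 in all alternatives run, each with an adjusted p of at most 1.8e-06.

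**Figure D3:**
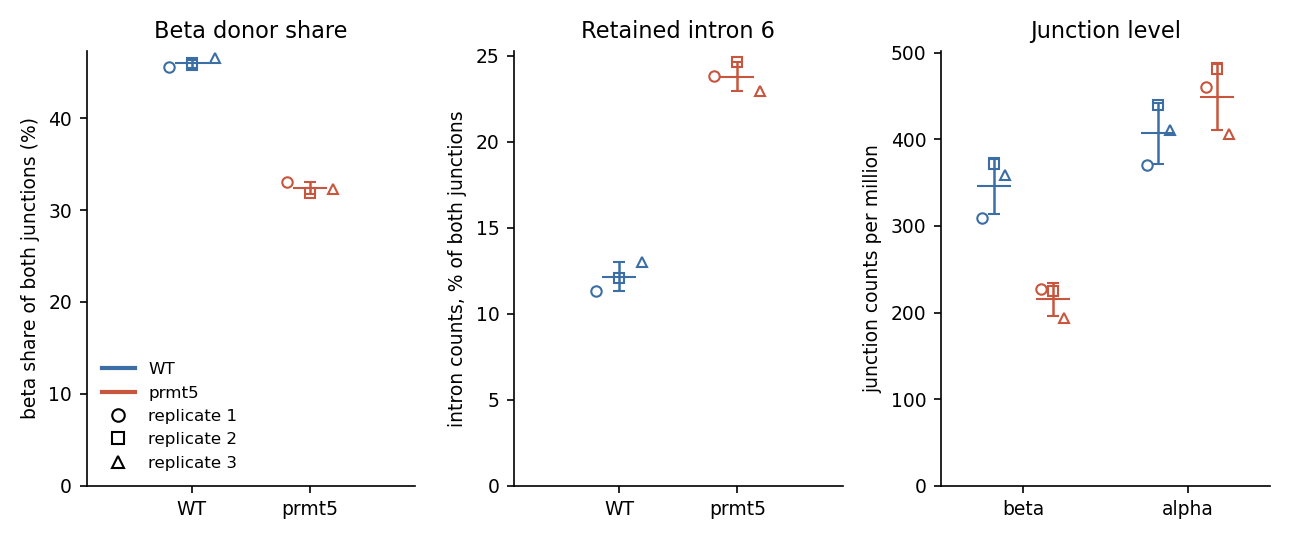
The last RCA intron in the WT (blue) and prmt5 (red) libraries; symbols are replicates, horizontal marks are means and bars are the SD of 3 libraries, and every vertical axis starts at 0. Left, beta share of both junctions in percent; middle, intron counts as a percent of both junctions; right, CPM of each junction. Beta use is lower and intron reads higher in every prmt5 library, while alpha use overlaps.

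Among the other RCA introns, intron 4 rose and the others did not pass. Its counts were 162, 111 and 222 in WT, against 246, 199 and 266 in prmt5. In raw counts only the highest WT library reaches the prmt5 libraries, and relative to the gene the groups were apart, at 0.0284% ± 0.0035 and 0.0448% ± 0.0047 (SD, n = 3 each; log2 change 0.67, SE 0.14, edgeR adjusted p 2.7e-04). Intron 4 was the least retained of the gene, at 0.483% of its junction counts in WT and 0.755% in prmt5. Introns 1, 2, 3 and 5 had log2 changes of 0.24, 0.11, 0.01 and 0.11, with adjusted p of 0.11, 0.53, 0.95 and 0.51. Intron 1 passed without WT replicate 1 (adjusted p 0.041). RCA introns 4 and 6 were the only member introns called in every alternative run.

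Set side by side as a percent of junction counts, intron 3 stood at 5.76% in WT and 5.74% in prmt5, and intron 6 at 12.1% and 23.8%. The donors of introns 4 and 3, caaGTgagt and aagGTataa with GT in capitals, scored 6.15 and 7.09. Read coverage of the RCA start against its end varied among libraries, from 0.470 to 0.730 in WT and 0.574 to 0.716 in prmt5, with overlap (exact permutation p 0.7). Junctions of RCA without an annotated match made up 0.0027% of its junction counts in WT and 0.0037% in prmt5.

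**Figure D4:**
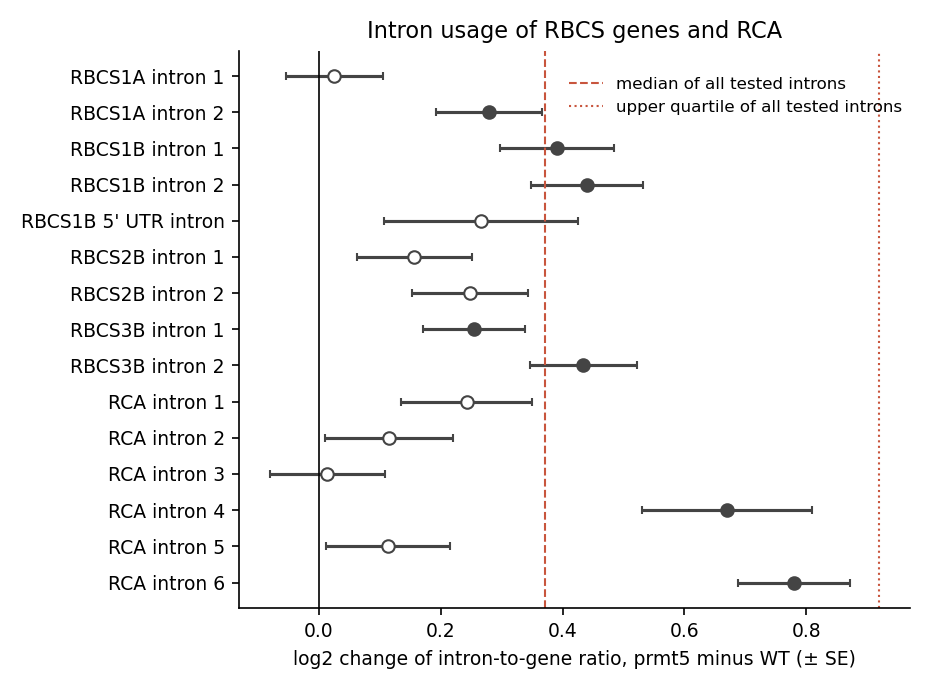
Log2 difference in intron counts per gene count, prmt5 minus WT (horizontal axis, bars are SE), for the 15 tested introns of the 5 genes; filled points passed the test. The dashed line marks the median (0.37) and the dotted line the upper quartile (0.92) of all tested introns. RCA introns 6 and 4 have the highest values, and all points lie right of 0.

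Of the other genes of the Calvin-Benson cycle, 19 were tested, 2 were higher and 5 lower in prmt5, and 12 did not pass. The share called, 36.8%, was close to the 33.3% of all genes, and the median log2 change was -0.15 against 0.01 over all genes. The transketolases, which move carbon pairs between sugar phosphates, were the higher ones: TKL1 (AT3G60750) went from 2368 ± 216 to 3253 ± 233 CPM (log2 change 0.46, edgeR adjusted p 0.0073) and TKL2 (AT2G45290) from 45.3 to 61.5 CPM (0.44, adjusted p 5.6e-04). RPE, ribulose phosphate epimerase, fell from 705 ± 41.0 to 505 ± 31.5 CPM (-0.48, adjusted p 0.0015). CP12-3, of the family that holds GAPDH and phosphoribulokinase in an inactive complex, fell by 0.39 (adjusted p 0.023) from 5.52 to 4.22 CPM, and the plastid triose phosphate isomerase fell by 0.33 (adjusted p 0.011). Without WT replicate 3 the list had 4 calls, and without prmt5 replicate 1 or prmt5 replicate 3 it had 3.

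Among 16 genes listed for Rubisco assembly, with chaperonin subunits and the large subunit, 5 were higher, 4 lower and 7 did not pass. The share called was 56.2%, against 33.3% of all 22509 genes tested, among which 17.9% were higher and 15.4% lower. The median log2 change of the list was 0.04. RbcX1, an assembly chaperone of the large subunit, was higher (log2 change 0.51, edgeR adjusted p 6.5e-04). So were the chaperonin subunits CPN60B3 (0.39), CPN60B4 (0.38), CPN60B1 (0.28) and CPN60A1 (0.27). Among the lower ones were the assembly factors RAF2 (-0.38, adjusted p 0.0018), BSD2 (-0.31, adjusted p 0.013) and RbcX2 (-0.21, adjusted p 0.034). RBCL, the plastid gene of the large subunit, had 31.1, 25.4 and 19.0 CPM in WT and 22.9, 16.3 and 23.0 in prmt5. Its groups overlapped (log2 change -0.27, adjusted p 0.39), and selection for poly(A) tails captures little plastid RNA. Genes of both directions were thus found on this list, as over all genes. Without prmt5 replicate 3 the list had 5 calls.

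**Figure D5:**
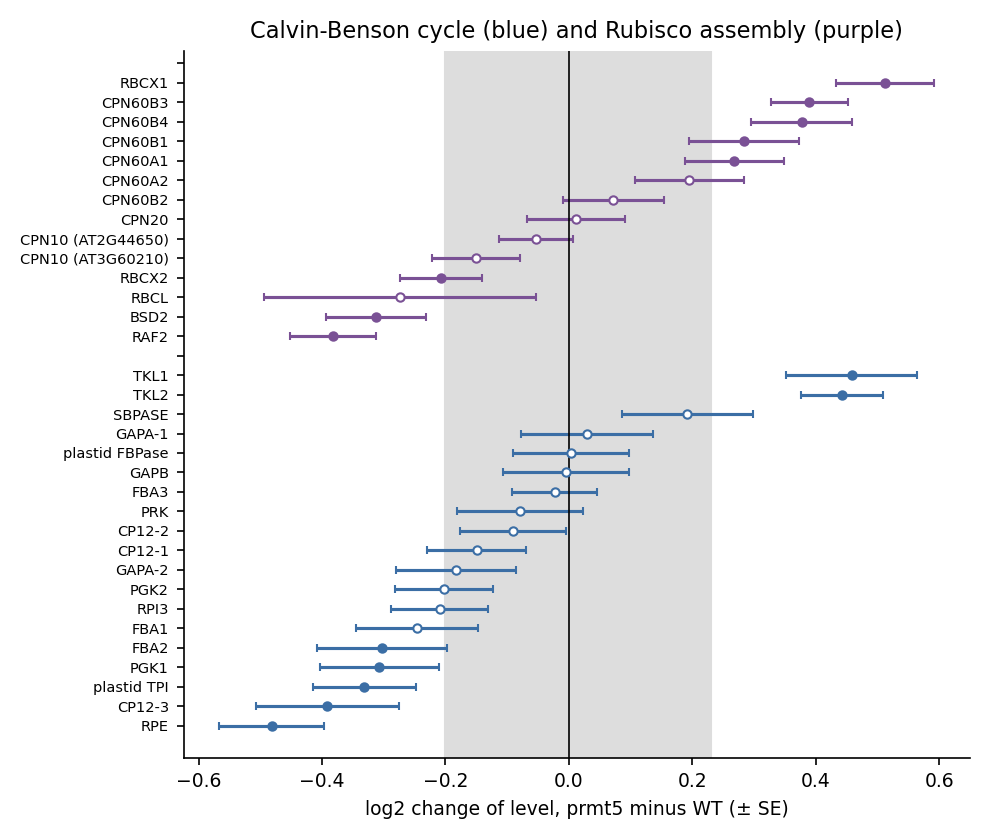
Log2 change of level, prmt5 minus WT (horizontal axis, bars are SE), for genes of the Calvin-Benson cycle (blue) and for 14 genes of Rubisco assembly (purple), each sorted by value; filled points passed the test. The grey band spans the quartiles of all tested genes, from -0.20 to 0.23. TKL1, TKL2 and RbcX1 stand at the right and RPE at the left.

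Of 4 markers of green tissue, 3 were called, all lower in prmt5, against 15.4% of all genes tested that were lower. These were LHCB1.2 (log2 change -0.61, edgeR adjusted p 0.049), LHCB2.1 (-0.88, adjusted p 0.0023) and PSAO (-0.33, adjusted p 0.038). GUN5 did not pass (-0.51, adjusted p 0.051), and its groups overlapped. For each of the 4 markers, WT replicate 2 was the lowest WT library. LHCB1.2 had 4946, 2609 and 3707 CPM in WT and 2379, 2516 and 2510 in prmt5. The summed level of the green tissue markers ran from 8007 to 12647 CPM in WT and 6652 to 7670 in prmt5. Of 5 root markers, EXP7 and SMB were higher and SCR lower, so 60% were called, against 33.3% of all genes tested. COBL9 did not pass (log2 change 0.27, edgeR adjusted p 0.14). Neither did NRT2.1, with means of 1.41 CPM in WT and 0.72 in prmt5 (edgeR adjusted p 0.051). The groups of both genes overlapped. The summed level of the 5 root markers overlapped, at 54.7 to 58.2 CPM in WT and 50.9 to 55.9 in prmt5. The seed storage gene CRU1 was lower in prmt5, with counts of 16, 8 and 54 in WT, against 0, 0 and 2 in prmt5 (edgeR adjusted p 0.0027), all under 1 CPM, and the senescence gene SAG12 and the 2S albumin had 2 counts or fewer in each. Their part in the RBCS3B and RCA results was not tested.

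The genes whose log2 CPM most resembled that of RCA over the 6 libraries, among 13058 genes, were POK1 (Pearson r 0.996), MSL2 (0.993) and AT1G59124 (0.990). Those most like the summed RBCS level were AT1G11700 (0.997), ARD4 (0.997) and NAKR3 (0.994). These values describe the same 6 libraries of 2 genotypes, and carry no test.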

How the data were processed

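Raw read counts per gene, exon bin, intron and splice junction, whole numbers that were not normalized, were deposited by the authors. The submitters' processing notes name STAR and TAIR10, without role or order. The counting program, read length and use of strand were not given in the sources used here. The 5 genes overlap no other gene in the table. Gene models, symbols and sequences came from RefSeq on TAIR10.1, where 98.5% of 110931 annotated junctions were flanked by GT and AG.

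The gene table was fitted with edgeR 4.0.16 under R 4.3.3 (TMM, default expression filter, robust quasi-likelihood F test, no covariate besides genotype). Adjustment of p-values was by Benjamini-Hochberg over each whole table, at 0.05. Introns and exon bins with a mean of at least 5 counts used the log of the gene count plus 0.5 as the offset. Junctions at the same minimum that share a donor or an acceptor were tested with diffSpliceDGE. CPM used TMM library sizes, and CPM per kilobase also used the deposited exonic length of each gene. Shares were compared by two-sided exact permutation tests over the 6 libraries. Donor scores and 50-base repeats were computed with Biopython 1.88 and Python 3.11.15. Alternative fits used DESeq2 1.42.0 and limma 3.58.1. Scripts were tested on simulated counts. Pairs of libraries of 1 genotype differed by more than sampling noise (chi-square 12.7 to 31.9 per degree of freedom).

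Every member and intron of the 5 genes is named, with the exon bins and junctions that passed. From each pathway list the 3 largest changes per direction past the threshold and RBCL are named, with other called assembly genes added after their values were seen; 2 genes of the assembly list are counted but not reported singly here. The members and lists were chosen with earlier results of these data known.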

Additional observations from a re-analysis of the deposited data

How the results depend on the processing

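Of 467 values recomputed under alternatives, 410 kept their side of the threshold or stayed within the replicate spread, 24 moved, 23 lost and 9 gained a call, and 1 called value reversed: RBCS3B intron 1 at -0.12 with library size as offset. Among the 410, 21 values of 5 uncalled results near 0 changed sign (RCA level, RBCS1A intron 1, RCA intron 3 and the RBCS1B and RBCS2B shares). With a 2-fold minimum, 878 of the 7488 called genes stayed past the threshold. Same-numbered libraries did not deviate together (correlations -0.17, -0.17 and -0.11). With 3 libraries per genotype, these values cannot settle whether the samples were paired. With a replicate block, 0 members were called (RBCS3B -0.37, adjusted p 0.13) and 3 Calvin-Benson genes. With DESeq2, 2 members were called (RBCS1B -0.20, adjusted p 0.031). Leaving out each replicate in turn gave 0 to 1 members called by level, RBCS3B at -0.42 to -0.33, 3 to 8 Calvin-Benson and 5 to 8 assembly genes, and 0 to 1 junctions. With library size as offset 2 introns were raised, and with the junction count 4. In place of the RCA isoform share, counts per base of the bin between the donors over the next bin gave a log2 ratio of -0.39. Alternatives chosen after seeing the data were these. Without WT replicate 2 and prmt5 replicate 1, 0 members were called (RBCS3B -0.39, adjusted p 0.060) and 2 exon bins. Blocking by the order of library numbers (correlations 0.20, 0.23 and 0.22) gave 12 Calvin-Benson genes, 3 exon bins and 2 junctions, and called the RCA alpha junction (adjusted p 0.010), the RCA bin between the donors (6.0e-05), RBCS2B intron 2 (0.0085) and RCA intron 1 (0.013). Exon bins with under 20% repeats gave RBCS share ratios of 0.14 for RBCS1B and -0.21 for RBCS3B. Restricting to bins with under 10% repeats was not run for RBCS1B, RBCS2B, the RBCS sum or the shares, because no bin of RBCS1B or RBCS2B was left.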
